A study of Nothobranchius furzeri with 20 samples.

Results

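In liver of male turquoise killifish (Nothobranchius furzeri), 9 among 26739 gene identifiers met a rule for a drop between 7 and 10 weeks of age. These genes had level age medians at 5 and 7 weeks and lower ones at 10 and 14 weeks. They were chosen from the deposited read counts of 20 liver libraries of the GRZ strain, a short-lived inbred line, with 5 libraries from males at each of 5, 7, 10 and 14 weeks. Each library is called a fish here, although the labels do not say whether each came from a different animal. With 1 fish left out, the number of genes that met the rule ran from 4 to 45. All fish shared strain, sex and tissue, the labels name no treatment or modified allele, and the series set livers of these ages side by side. Fish numbers, 1 to 5 in each age, serve as names and link no fish across ages.

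Counts were divided by the total of their library and expressed as CPM, the usual unit of library-scaled read counts, and the median over the 5 fish of each age was taken on the scale log2(CPM + 0.5). A gene was kept where its highest age median reached 5 CPM, and the 100 most abundant genes were set aside, which left 10284 genes. Its medians at 5 and 7 weeks had to lie within 0.4 log2 units of each other, and so had those at 10 and 14 weeks. The score is the gap between the lower of the 2 young medians and the higher of the 2 old ones, and a member had a score of at least 1, a gap of at least 2-fold. The rule allowed up to 150 genes, so this cap did not come into play. The rule read the medians of all 4 ages, so the drop itself is a description of the chosen genes and is not supported by any test below.

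The liver makes most plasma proteins, handles nutrients and bile, and clears foreign compounds, and its transcriptome changes with growth, reproduction and feeding. Turquoise killifish live in seasonal pools, mature early and age fast, so these ages span young to late adult life in the short-lived strain. The 26739 identifiers carry no gene names in the files, and 0 of them matched the RefSeq reference table, so the members have no known function here and no promoter, protein or transcript sequence is shown. For the same reason no hepatocyte or other cell type marker could be looked up, and the labelled tissue was not checked against its markers. In these whole-tissue samples, fewer cells of a type and less RNA per cell cannot be told apart.

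Library totals ran from 22529235 to 42886761 counts, and each age held libraries between 22529235 and 32050062 counts at 5 weeks, 24566917 and 37122038 at 7 weeks, 24330529 and 42886761 at 10 weeks, and 24890288 and 34710218 at 14 weeks. Every member had at least 29 reads in every library, so no value rests on an absent gene. At 5 weeks, fish 1 and 2 stood apart for these genes. Averaged over the 9 members, 5-week fish 1 and 2 stood at 5.12 and 5.20 on the log2 scale, and 5-week fish 3, 4 and 5 at 3.90, 4.21 and 4.35. The main results that rest on 5 weeks were therefore also computed without 5-week fish 1 and 2, a choice made after seeing the data, and are given together after the fitted changes.

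The requirement of level medians on both sides removed most genes with a drop. Of the 10284 genes, 4732 had 5- and 7-week medians within 0.4 log2 units, 7719 had 10- and 14-week medians within 0.4, and 3763 met both. Without these limits 89 genes had a score of at least 1. Of the 80 that were not members, 71 differed too much between 5 and 7 weeks, and 63 of those 71 were higher at 7 weeks. The 3763 level genes were nearly evenly divided at small gaps, with 1250 having a positive drop score and 1152 a positive score for a rise under the mirrored rule. At a gap of at least 0.5 there were 137 drops and 188 rises, and at a gap of at least 1 there were 9 drops and 33 rises. The members thus made up 0.239% of the level genes and the rises 0.877%. The order of these 2 counts turned in 1 of the 20 runs with 1 fish left out, to 45 drops and 35 rises without 5-week fish 4, and without 5-week fish 3 there were 34 drops and 40 rises.

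**Figure D1:**
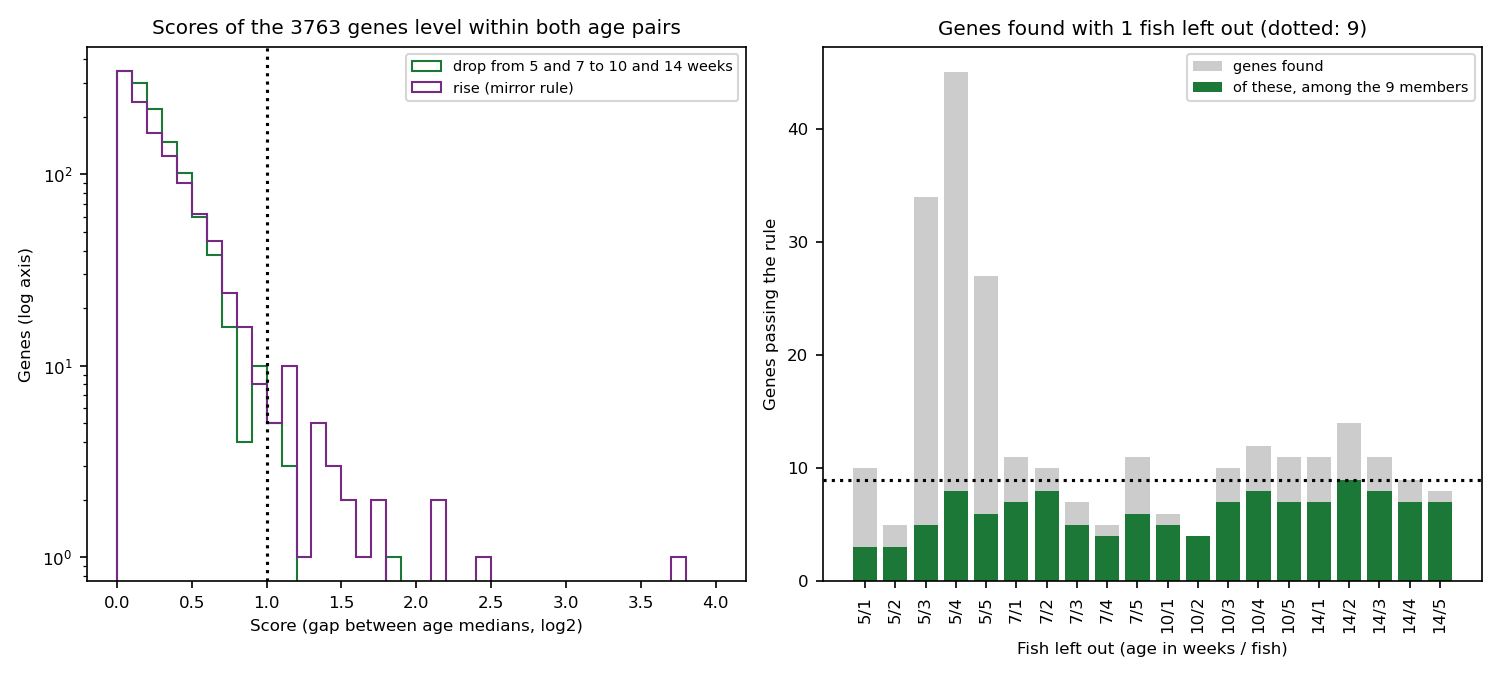
Left, numbers of genes (log axis) by score in log2 units, for drops (green) and for rises under the mirrored rule (purple), among the 3763 genes with level medians at 5 and 7 and at 10 and 14 weeks; the dotted line marks a score of 1, past which lie 9 drops and 33 rises. Right, genes passing the rule when 1 fish is left out, named by age and fish number, with those among the 9 members in green; the count runs from 4 to 45.

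Nfu_g_1_007332, 3714 bp long, had the highest score at 1.81, well apart from the next at 1.17. In 5-week fish 1 to 5 it stood at 30.4, 28.5, 12.4, 10.9 and 30.7 CPM, and in 7-week fish 1 to 5 at 19.9, 22.4, 23.5, 21.5 and 31.4 CPM. In 10-week fish 1 to 5 it stood at 4.42, 5.80, 8.18, 4.75 and 6.29 CPM, and in 14-week fish 1 to 5 at 6.03, 6.67, 7.41, 4.94 and 2.65 CPM. Every young fish was above every old fish, the closest pair being 5-week fish 4 and 10-week fish 3. Its means were 22.6 ± 10.003, 23.7 ± 4.46, 5.89 ± 1.49 and 5.54 ± 1.85 CPM in order of age (mean ± SD over 5 fish). The fitted change from 7 to 10 weeks was -1.998 log2 units (SE 0.276), a level 4.00-fold higher at 7 weeks.

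Nfu_g_1_018501, 2119 bp long, was the other member whose young and old fish did not overlap. The 5-week fish 1 to 5 had 121, 140, 80.0, 64.1 and 97.4 CPM, and the 7-week fish 1 to 5 had 121, 144, 141, 116 and 107 CPM. The 10-week fish 1 to 5 had 36.9, 31.0, 43.6, 41.3 and 58.9 CPM, and the 14-week fish 1 to 5 had 41.7, 57.9, 43.0, 49.1 and 35.6 CPM. Separation was narrow, with the lowest young fish at 64.1 and the highest old fish at 58.9 CPM. It had the smallest spread within ages of the 9 members, an SD of 0.323 log2 units, and its fitted changes were -1.55 (SE 0.191) from 7 to 10 weeks and -1.08 (SE 0.189) from 5 to 14 weeks.

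Nfu_g_1_018151, 1488 bp long, was by far the most abundant member. The 5-week fish 1 to 5 had 379, 709, 774, 658 and 1134 CPM, and the 7-week fish 1 to 5 had 883, 1001, 638, 932 and 988 CPM. At 10 weeks, fish 1 to 5 had 222, 242, 363, 323 and 293 CPM, and the 14-week fish 1 to 5 had 301, 597, 342, 412 and 104 CPM. All 7-week fish were above all old fish, and 5-week fish 1 was the single young fish that overlapped them, with 14-week fish 2 and 4 above it. Its means were 731 ± 271, 888 ± 148, 289 ± 57.9 and 351 ± 179 CPM in order of age (SD, n = 5).

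Scaled by gene length, which is needed to compare genes, Nfu_g_1_018151 and Nfu_g_1_018501 were also the highest of the members. Over the 10 fish of 5 and 7 weeks, Nfu_g_1_018151 reached 544 ± 149 RPKM (CPM divided by gene length in kilobases, SD, n = 10), above 98.7% of the tested genes with a known length. Nfu_g_1_018501 reached 53.4 ± 12.5 RPKM, above 93.8% of them. The other 7 members lay between 0.791 RPKM for Nfu_g_1_015341, which has the longest gene model at 11940 bp, and 8.02 RPKM for Nfu_g_1_008573, which has the shortest at 780 bp. The median length of the members was 3330 bp, against 2601 bp for 14490 tested genes with a length and 3158 bp for the 33 rises. Lengths were taken only where the deposited RPKM was high enough, which left out the lowest of the 16475 tested genes. The shares and the median of tested genes given here therefore hold for the better expressed ones.

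Nfu_g_1_004753, 3330 bp long, had all 7-week fish above all fish of both later ages. The 5-week fish 1 to 5 had 21.8, 28.04, 8.67, 13.1 and 18.2 CPM, and the 7-week fish 1 to 5 had 19.9, 24.7, 22.8, 28.9 and 22.1 CPM. Of the old fish, those of 10 weeks had, from fish 1 to 5, 7.63, 7.85, 9.61, 7.95 and 9.18 CPM, and the 14-week fish 1 to 5 had 6.27, 12.5, 6.89, 6.08 and 4.84 CPM. The overlap came from 5-week fish 3 alone, which lay within the old fish. Its 10-week fish stood at 8.44 ± 0.887 CPM (SD, n = 5), and their SD of 0.141 log2 units was the smallest of any member at any age.

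Nfu_g_1_023271, 5139 bp long, entered with a score of 1.01, the lowest of the members. The 5-week fish 1 to 5 had 10.1, 11.7, 6.96, 3.79 and 4.05 CPM, and the 7-week fish 1 to 5 had 4.97, 9.24, 16.1, 9.01 and 3.50 CPM. The 10-week fish 1 to 5 had 2.25, 1.69, 4.13, 4.29 and 2.99 CPM, and the 14-week fish 1 to 5 had 1.85, 5.46, 5.27, 3.22 and 2.48 CPM. Fish 4 and 5 of 5 weeks and fish 1 and 5 of 7 weeks lay at or below the highest old fish. The 3 genes with the next lower scores, just outside the rule, had 0.998, 0.990 and 0.952, so the threshold did not fall in a gap.

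Nfu_g_1_021270 and Nfu_g_1_013067 overlapped more widely, and in both genes fish 1 was the highest of its age at 10 and at 14 weeks. For Nfu_g_1_021270, 5138 bp long, the 5-week fish 1 to 5 had 30.2, 23.6, 9.24, 19.9 and 24.4 CPM and the 7-week fish 27.7, 31.0, 25.99, 22.28 and 12.2 CPM. At 10 weeks, fish 1 to 5 had 22.7, 10.7, 9.96, 6.53 and 9.31 CPM, and the 14-week fish 21.9, 12.4, 9.54, 7.06 and 10.3 CPM. Thus 10-week fish 1 and 14-week fish 1 reached the level of the young fish, and 5-week fish 3 and 7-week fish 5 lay at the level of the old ones.

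For Nfu_g_1_013067, 2739 bp long, the 5-week fish 1 to 5 had 30.1, 21.1, 5.68, 15.6 and 11.01 CPM and the 7-week fish 20.4, 40.03, 23.6, 18.2 and 9.59 CPM. Of the old fish, those of 10 weeks had, from fish 1 to 5, 19.2, 3.90, 3.80, 7.03 and 9.51 CPM, and the 14-week fish 13.1, 7.31, 5.66, 2.31 and 7.81 CPM. Here 5 of the 10 young fish lay at or below 10-week fish 1, the highest old fish. As for the other gene, 5-week fish 3 and 7-week fish 5 were the lowest of their ages.

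Nfu_g_1_015341 varied most at 5 weeks, where fish 1 and 2 stood highest. The 5-week fish 1 to 5 had 18.6, 30.4, 0.998, 6.44 and 2.51 CPM, and the 7-week fish 1 to 5 had 4.15, 6.79, 12.0, 9.08 and 3.38 CPM. The 10-week fish 1 to 5 had 2.25, 1.97, 6.23, 3.89 and 1.24 CPM, and the 14-week fish 1 to 5 had 2.17, 3.57, 1.91, 2.74 and 2.77 CPM. The lowest of all 20 fish was a young one, 5-week fish 3. Its mean of 11.8 ± 12.5 CPM at 5 weeks (SD, n = 5) was 3.31 ± 2.81 CPM over 5-week fish 3, 4 and 5 (SD, n = 3), and its SD within ages, 1.05 log2 units, was the largest of the members.

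Nfu_g_1_008573 passed the rule by its medians, but all 10 young fish lay at or below the highest old fish, and 8 of the 10 old fish at or above the lowest young fish. The 5-week fish 1 to 5 had 12.1, 7.14, 7.08, 3.53 and 1.91 CPM, and the 7-week fish 1 to 5 had 2.65, 2.64, 12.9, 6.10 and 6.52 CPM. At 10 weeks, fish 1 to 5 had 1.14, 2.30, 2.45, 6.89 and 3.93 CPM, and the 14-week fish 1 to 5 had 1.17, 2.81, 2.68, 2.55 and 15.3 CPM. The highest of all 20 fish was an old one, 14-week fish 5, above all 10 young fish. Its means were 6.35 ± 3.92, 6.16 ± 4.20, 3.34 ± 2.22 and 4.90 ± 5.84 CPM in order of age (SD, n = 5).

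**Figure D2:**
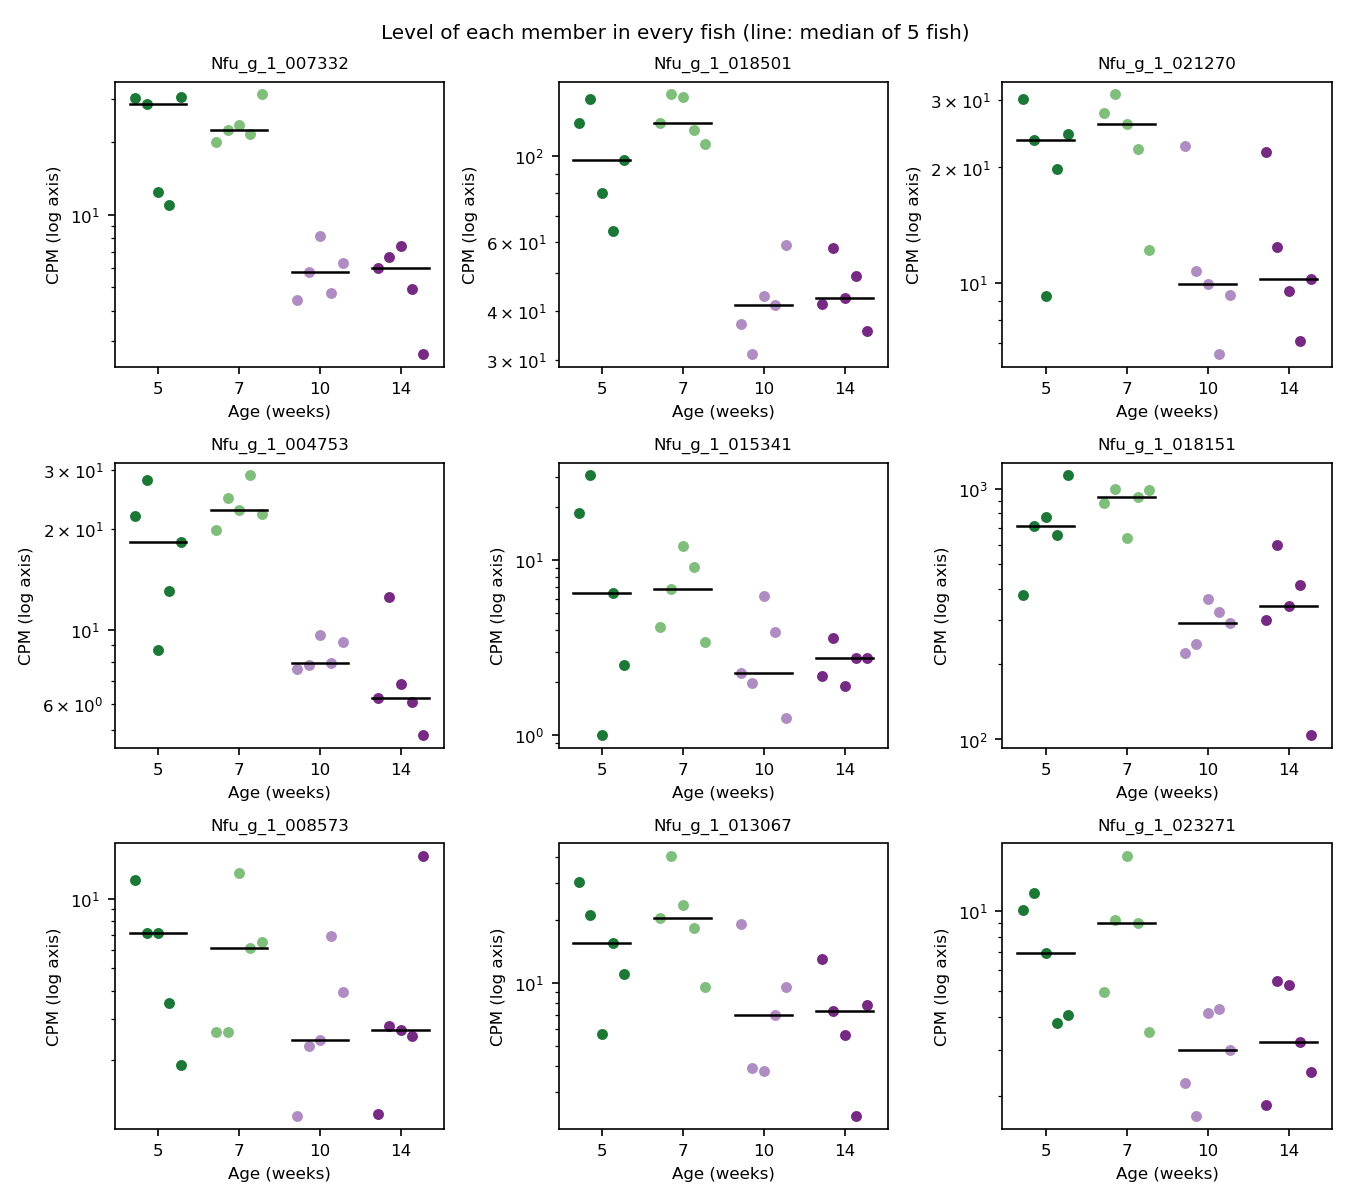
Level of each of the 9 members in every fish, in CPM on a log axis, by age in weeks; within an age the points run from fish 1 to fish 5 and the line is the median of the 5 fish. Young and old fish are fully apart for Nfu_g_1_007332 and Nfu_g_1_018501, while 14-week fish 5 is the highest point of Nfu_g_1_008573.

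Taken fish by fish, the mean level of the 9 members was higher in each young fish than in each old fish. The choice of genes fixes the order of the age medians of each member. It thereby favours this order of fish without setting it for every single fish, so nothing is read from it. The mean level was 4.56 ± 0.575, 4.79 ± 0.293, 3.45 ± 0.191 and 3.45 ± 0.239 at 5, 7, 10 and 14 weeks (log2 scale, SD over fish, n = 5). The lowest young fish, 5-week fish 3 at 3.90, and the highest old fish, 14-week fish 2 at 3.85, nearly met. The 9 members together took 0.0653% to 0.132% of the counts of a young library and 0.0186% to 0.0705% of an old one, most of it from Nfu_g_1_018151. The median drop over the members, from the mean of 5 and 7 weeks to the mean of 10 and 14 weeks, was 1.27 log2 units, with a range from 0.69 to 1.90, against 0.05 for all 16475 tested genes.

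**Figure D3:**
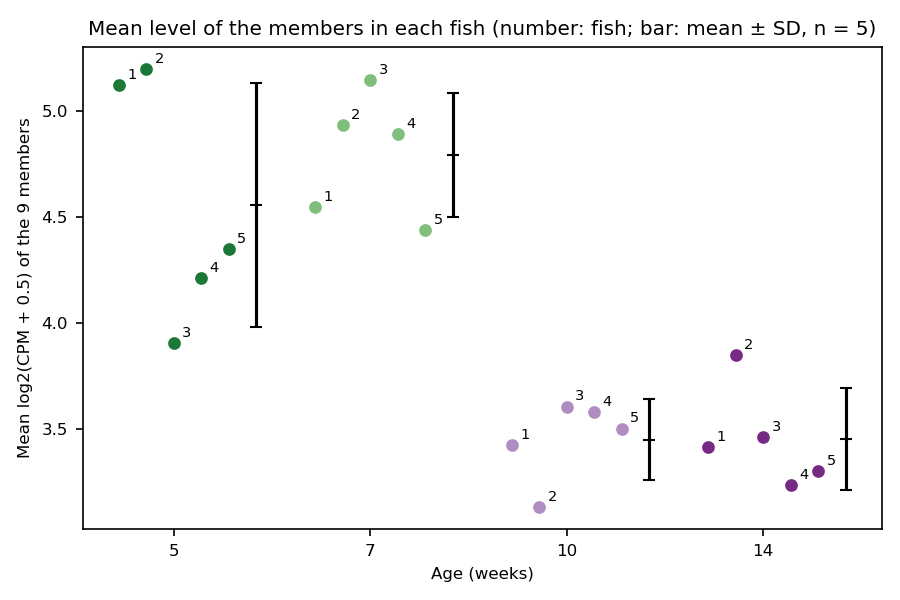
Mean log2(CPM + 0.5) over the 9 members in each fish, by age in weeks, with the fish number beside each point and a bar for the mean ± SD of the 5 fish. The 5-week fish split into fish 1 and 2, above 5, and fish 3, 4 and 5, between 3.90 and 4.35; the 10- and 14-week fish lie between 3.13 and 3.85.

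Only some members separated the ages fish by fish. All 10 young fish were above all 10 old fish in 2 of the 9 members, Nfu_g_1_007332 and Nfu_g_1_018501, where 0.255% of the tested genes had this order. Between 7 and 10 weeks all younger fish were above all older fish in 4 of the 9 members, adding Nfu_g_1_004753 and Nfu_g_1_018151, where 15.0% of the tested genes had this order. Between 7 and 14 weeks it was the same 4 members, against 13.1% of the tested genes. Between 5 and 10 weeks 3 members did not overlap, against 1.86%, and between 5 and 14 weeks 2, against 1.04%. The rule used these ages, so nothing is read from these counts either.

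Calls were made over all genes with edgeR's quasi-likelihood test, at a Benjamini-Hochberg adjusted p under 0.05, and the members were counted among them. Since the rule used these contrasts, nothing is read from the counts. From 7 to 10 weeks 5 of the 9 members were called lower, where 15.7% of the tested genes were, and from 7 to 14 weeks 6 of 9, against 16.7%. From 5 to 10 weeks 4 of 9 were called lower, against 5.41% of the tested genes, and from 5 to 14 weeks 3 of 9, against 2.65%. Nfu_g_1_007332, Nfu_g_1_018501 and Nfu_g_1_004753 were called in all 4 of these comparisons and Nfu_g_1_018151 in 3. Nfu_g_1_023271 was called from 7 weeks to each later age and Nfu_g_1_013067 from 7 to 14 weeks alone. Nfu_g_1_021270, Nfu_g_1_015341 and Nfu_g_1_008573 were called in none of them by edgeR. DESeq2 called 7 members lower from 7 to 10 weeks and 8 from 7 to 14, and limma-voom 7 in each. From 5 weeks DESeq2 called 6 lower at 10 weeks and 5 at 14, and limma-voom 3 at each. Both called Nfu_g_1_021270 from 7 weeks to each later age. DESeq2 called Nfu_g_1_015341 in all but the comparison from 7 to 10 weeks. Shares of all tested genes were not computed for these methods.

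The 4 comparisons share fish of the same ages, so their fitted values are given side by side. The rule set the order of the age medians in each comparison, so nothing is read from the signs or sizes. The median change over the members was -1.46 log2 units from 7 to 10 weeks, -1.38 from 7 to 14, -1.19 from 5 to 10 and -1.08 from 5 to 14, beside 0.03, 0.03, -0.07 and -0.08 over all tested genes. All 9 members had a fitted value below 0 in each of the 4 comparisons with all fish. That of Nfu_g_1_008573 from 7 to 14 weeks turned to 0.13 without 7-week fish 3, and its value from 5 to 14 weeks also turned without 5-week fish 1 and 2, as given further on. Nfu_g_1_008573, which was not called, had the fitted value nearest 0 in 3 of the comparisons, at -0.84 (SE 0.626) from 7 to 10 weeks, -0.28 from 7 to 14 and -0.29 (SE 0.619) from 5 to 14 weeks. From 5 to 10 weeks that of Nfu_g_1_021270 was nearest 0, at -0.76. Nfu_g_1_015341 had a fitted change of -1.99 from 5 to 14 weeks, the size of that of Nfu_g_1_007332 at -1.96, but with an SE of 0.599 against 0.276.

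Within the 2 age pairs that the rule held level, 0 members were called by edgeR's quasi-likelihood test, between 5 and 7 weeks, where 21.1% of the tested genes were called, and between 10 and 14 weeks, where 0.0121% were. DESeq2 and limma-voom also called 0 members in either pair at an adjusted p under 0.05. At an unadjusted p under 0.05, edgeR gave 0 members in either pair, against 37.4% of the tested genes between 5 and 7 weeks and 6.42% between 10 and 14 weeks. DESeq2 and limma-voom gave 1 member each between 5 and 7 weeks and 0 between 10 and 14. The shares of all tested genes were computed for edgeR alone. The rule held both pairs level, so nothing is read from these counts. From 5 to 7 weeks the fitted values were above 0 in 7 of the 9 members, the highest at 0.51 (SE 0.486) for Nfu_g_1_013067 and 0.45 (SE 0.227) for Nfu_g_1_004753. Those of Nfu_g_1_015341 and Nfu_g_1_008573 were -0.61 (SE 0.575) and -0.01 (SE 0.618). The former turned to 0.13 without 5-week fish 2 and to 0.02 with limma-voom, and the latter turned in several runs. The values of Nfu_g_1_007332 and Nfu_g_1_023271 fell just below 0 in runs with 1 fish left out. From 10 to 14 weeks the fitted values ran from -0.31 (SE 0.489) for Nfu_g_1_013067 to 0.56 (SE 0.624) for Nfu_g_1_008573. The value of Nfu_g_1_008573 turned to -0.53 without 14-week fish 5, its highest fish, and that of Nfu_g_1_013067 to 0.25 without 10-week fish 1. Those of Nfu_g_1_007332, Nfu_g_1_015341 and Nfu_g_1_021270 also turned in runs with 1 fish left out.

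**Figure D4:**
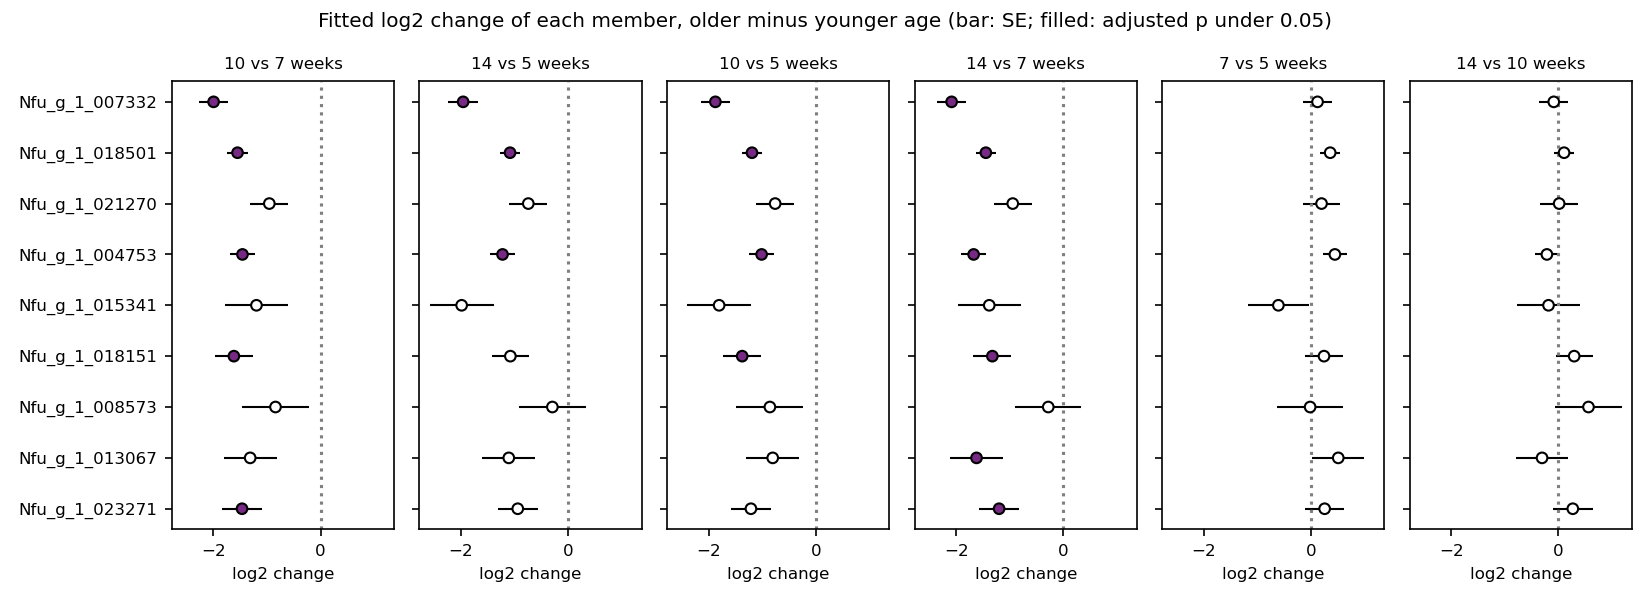
Fitted log2 change of each member in 6 comparisons, older minus younger age, with the SE as a bar and filled points where the adjusted p of edgeR's test over all genes was under 0.05. With all fish, all 9 members lie below 0 in the 4 comparisons across the drop, and no point is filled for 7 against 5 or 14 against 10 weeks. The rule used the medians of all 4 ages and favours both patterns, so nothing is read from them.

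The 5-week fish 1 and 2 were picked for their high mean over these same members. Leaving them out lowers the mean 5-week level of the members by that choice, and no pair of fish of another age was left out. The values here are therefore a description, and nothing is read from their direction. Without the 2 fish most members no longer had level medians at 5 and 7 weeks. The fitted drop from 5 weeks was also smaller, or turned, in every member but Nfu_g_1_018151. These 2 fish were the 2 highest of their age in 6 of the 9 members, all but Nfu_g_1_007332, Nfu_g_1_018151 and Nfu_g_1_021270. Without them the rule found 3 genes, of which 1, Nfu_g_1_018151, was a member. For 7 of the 9 the 5- and 7-week medians then differed by more than 0.4, with the 5-week median of Nfu_g_1_007332 at 12.4 CPM beside 22.4 CPM at 7 weeks. Nfu_g_1_021270 stayed level but had a score of 0.92. The median fitted change over the members without the 2 fish was -0.76 from 5 to 10 weeks and -0.65 from 5 to 14 weeks. From 5 to 10 weeks the change was larger in Nfu_g_1_018151 alone, at -1.69, and smaller in all the others. It was over 1.5 times smaller in 3 of the 9 members, Nfu_g_1_015341, Nfu_g_1_008573 and Nfu_g_1_013067. From 5 to 14 weeks the change was again larger in Nfu_g_1_018151 alone, at -1.35. There it was over 1.5 times smaller, or turned, in 4 of the 9. The fitted change of Nfu_g_1_015341 from 5 to 10 weeks was -1.80 with all fish and -0.25 without the 2 fish, and that of Nfu_g_1_013067 was -0.80 and -0.37. From 5 to 14 weeks Nfu_g_1_015341 stood at -0.40 and Nfu_g_1_007332 at -1.77 without them. The value of Nfu_g_1_008573 from 5 to 14 weeks turned to 0.09. From 5 to 7 weeks the values of Nfu_g_1_015341 and Nfu_g_1_008573 turned to 0.94 and 0.35, and that of Nfu_g_1_018151 from 0.25 to -0.06. Nfu_g_1_007332 and Nfu_g_1_018501 were called in all 4 comparisons also without them, at -1.71 and -1.04 from 5 to 10 weeks. The call of Nfu_g_1_004753 was lost from 5 to 10 weeks (-0.76) and from 5 to 14 weeks (-0.94), while Nfu_g_1_015341 came to be called from 7 weeks to each later age. In all, 3 members were called lower from 5 to 10 weeks and 2 from 5 to 14 weeks. The median drop over the members was 1.01 log2 units, and 3 members had all remaining young fish above all old fish. Leaving out fish cannot lower this last count. The shares of all tested genes called, or without overlap, were not computed without the 2 fish, so nothing is read from these counts.

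Leaving out 1 fish at a time, always with edgeR's test over all genes, changed calls of 6 members. Shares of all tested genes called were not computed for these runs, so nothing is read from the changes. The call of Nfu_g_1_018151 from 5 to 10 weeks was lost without 10-week fish 1, 3, 4 or 5, and it was called from 5 to 14 weeks without 14-week fish 2. Nfu_g_1_004753 lost its call from 5 to 10 weeks without 5-week fish 2 or 10-week fish 4. From 7 to 14 weeks, Nfu_g_1_013067 was not called without 7-week fish 2, nor Nfu_g_1_023271 without 7-week fish 3 or 14-week fish 1. Calls were gained from 7 to 10 weeks by Nfu_g_1_021270 and Nfu_g_1_013067 without 5-week fish 3, 7-week fish 5, 10-week fish 1 or 14-week fish 1, and by the latter also without 14-week fish 4. From 7 to 14 weeks Nfu_g_1_021270 was called without any of the same 4 fish or 10-week fish 4. Nfu_g_1_015341 was called from 5 to 10 and 5 to 14 weeks without 5-week fish 3 or 5, and from 7 to 14 weeks without 5-week fish 3. Nfu_g_1_023271 was called from 5 to 10 weeks without 5-week fish 4 or 5, 7-week fish 3 or 5, or 14-week fish 5. The calls of Nfu_g_1_007332 and Nfu_g_1_018501 held in all these runs, and Nfu_g_1_008573 was called in none. Nfu_g_1_007332 and Nfu_g_1_018501 did lose their call from 5 to 14 weeks when only the 10 libraries of these 2 ages were fitted.

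Single fish at 5 weeks also decided which genes passed. The rule found 45 genes without 5-week fish 4, 34 without fish 3 and 27 without fish 5, and 5 without fish 2 and 10 without fish 1, of which 3 each were members. At the other ages it found 5 genes without 7-week fish 4, 4 without 10-week fish 2 and 14 without 14-week fish 2, and between 6 and 12 without any of the other 12 fish. Nfu_g_1_007332 and Nfu_g_1_021270 were found in all 20 of these runs, Nfu_g_1_018501 in 16, Nfu_g_1_004753 and Nfu_g_1_018151 in 14 each, Nfu_g_1_015341 in 12 and Nfu_g_1_008573 in 11. Nfu_g_1_023271 and Nfu_g_1_013067 were found in 9 and 8.

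The rule uses medians and does not read the spread between fish of 1 age directly. Medians of few fish move more in variable genes, so the choice of genes can favour a larger spread. How much of the difference below comes from that choice was not tested. The median SD within ages was 0.594 log2 units over the members and 0.425 over the tested genes. By age, the median SD of the members was 0.687 at 5 weeks, 0.517 at 7, 0.486 at 10 and 0.582 at 14 weeks, against 0.487, 0.288, 0.353 and 0.372 over the tested genes. The SD was largest at 5 weeks in 5 of the 9 members. Nfu_g_1_018501 varied less than most genes, with 25.5% of the tested genes below it, and Nfu_g_1_004753 lay in the middle with 48.4% below. Nfu_g_1_015341, Nfu_g_1_008573 and Nfu_g_1_013067 varied more than 95.9%, 94.6% and 91.2% of the tested genes.

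After the mean of each age was taken away, some pairs of members moved together from fish to fish and others in opposite directions. Whether the members move as 1 group was not tested. Over the 20 fish the 36 pairs of members had a median Pearson r of 0.31, with a range from -0.59 to 0.82 and 27 pairs above 0, and a median Spearman rho of 0.233. All pairs share the same 20 libraries, and the median over all pairs of tested genes was 0.107 with quartiles of -0.145 and 0.348. The share of tested pairs above 0 was not computed. The 528 pairs of the 33 rises had a median r of 0.175, with 347 pairs above 0. With totals scaled by TMM (edgeR's trimmed mean of M-values) the medians were 0.143 for the members and -0.0017 for the tested genes. Without 5-week fish 1 and 2 the medians were 0.102 and 0.0693. Most members passed the rule only with these fish, so the choice of genes can bear on their shared deviations. How far it does was not tested.

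The closest pair was Nfu_g_1_021270 with Nfu_g_1_013067, at 0.82, the genes in which fish 1 was the highest of 10 and of 14 weeks. Nfu_g_1_007332, Nfu_g_1_018501 and Nfu_g_1_004753 had r of 0.61, 0.71 and 0.71 among themselves. Nfu_g_1_015341 had 0.67 with Nfu_g_1_004753 and 0.59 with Nfu_g_1_023271. The most abundant member, Nfu_g_1_018151, had a mean r of -0.04 with the other members. Its lowest value was -0.59 with Nfu_g_1_008573, and in 14-week fish 5 the former had its lowest and the latter its highest level of all 20 fish.

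**Figure D5:**
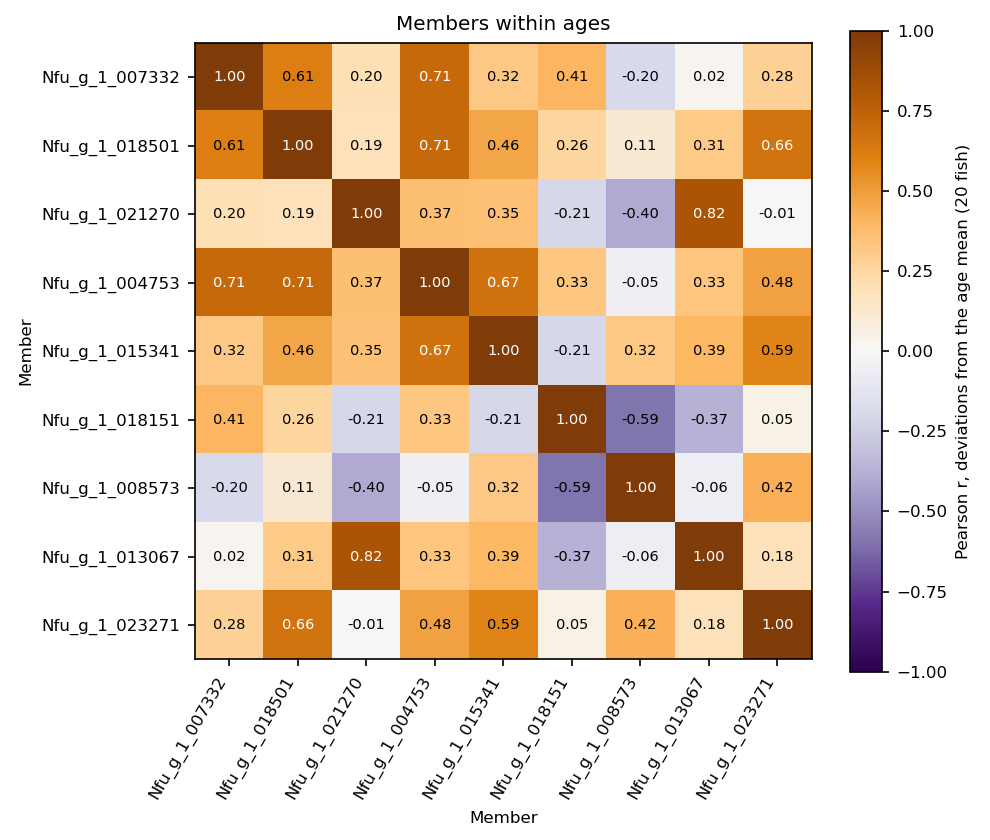
Pearson r between members over 20 fish, computed on deviations of log2(CPM + 0.5) from the mean of the fish's age; brown is positive and purple negative. The highest r, 0.82, is that of Nfu_g_1_021270 with Nfu_g_1_013067, and the lowest, -0.59, that of Nfu_g_1_018151 with Nfu_g_1_008573.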

How the data were processed

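The authors deposited whole-number counts of reads for each gene. Per the submitters' processing notes, featureCounts 1.4.6-p4, STAR 2.4.1d and CASAVA 1.8.2 were used. Per the labels, total RNA went into TruSeq v2 libraries, a kit without strand information. Genome build, annotation and counting settings: not given in the sources used here. Reads shared by gene copies or by overlapping genes cannot be separated.

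The authors also deposited RPKM, whose library totals ran through a cycle of 25 numbers down the columns (residual SD 2.52e-05 log2 units over 2953 genes, against 0.227 with 1 divisor). Of these totals, 20 matched the column totals. Only gene lengths were taken from that table, and RPKM given here were rebuilt from counts, lengths and own totals.

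The members and lists were chosen with earlier results of these data known. The 16475 genes passing filterByExpr were tested with edgeR 4.0.16 in R 4.3.3, with TMM scaling and 1 mean per age over all 20 libraries, so the fitted changes are TMM-scaled and the CPM are not. SE is the log2 change divided by the square root of F. DESeq2 1.42.0 and limma 3.58.1 (voom) were alternatives. Parts of the code were run on simulated data, with noise set in advance and not matched to the spread of the members. Such runs check the code alone and do not show how the methods perform for these genes. All 40 same-age library pairs differed beyond sampling noise (lowest chi-square per degree of freedom 64.8), and each library was counted as a sample. The labels give no batch or date. They do not say whether the libraries of an age came from separate animals, so SDs and p-values measure only the spread between libraries, which may be technical. By a rule, identifiers were named for the largest fitted changes per comparison (across the drop, only where fish of the 2 ages did not overlap), the highest scores and the highest levels per length. Nfu_g_1_021270 and Nfu_g_1_023271 fell outside it and were named after their values were seen, to account for every member.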

Additional observations from a re-analysis of the deposited data

Results flagged for a closer look

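Of 40 groups of 5 fish examined (9 members and their mean, at 4 ages), 1 held a fish far from the rest, where chance gives about 1 in 20. Nfu_g_1_018151 in 7-week fish 3 stood at 9.32 log2 CPM, below the next 7-week fish at 9.79.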

How the results depend on the processing

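The number of genes found by the rule was 15 with CPM from TMM-scaled totals (8 of them members, with 44 rises), 16 with a minimum of 1 CPM (all 9 members) and 3 without 5-week fish 1 and 2, and it ran from 4 to 45 with 1 fish left out, while rises ran from 19 to 42. It was 12 and 6 with pseudocounts of 0.1 and 1, 6 with a minimum of 10 CPM and 9 with no abundant genes dropped. The median correlation within ages was 0.143 with TMM-scaled totals and 0.102 without 5-week fish 1 and 2, and 0.168 to 0.331 with 1 fish left out. With 1 fish left out, members called lower ran from 5 to 7 (7 to 10 weeks), 5 to 8 (7 to 14), 2 to 6 (5 to 10) and 3 to 4 (5 to 14), members without overlap from 2 to 3, the median drop from 1.14 to 1.38 and the median SD from 0.590 to 0.614. Members called between 5 and 7 and between 10 and 14 weeks ran from 0 to 0. From 5 to 14 weeks 5 members were called with DESeq2 and 0 when only the 10 libraries compared were fitted (7 at an unadjusted p under 0.05), and from 5 to 10 weeks 2 in such a fit. The cause was not tested. Shares of all tested genes called, or without overlap, were not computed for these runs. No paired analysis was possible because fish carry no number that links ages. With 5 fish an age, the medians rest on single fish.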
